A study of Mus musculus with 6 samples.

Results

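The genes described here are neighbours: the 135 gene features whose exons all lie on mouse chromosome 18 and end within its first 11.1 Mb. They were chosen by position alone, out of 53546 features in RNA sequencing counts of 6 mouse libraries of strain C57BL/6. The labels call 3 of the libraries control and 3 spinal cord injury, and numbers 1 to 3 come from the sample titles. The tissue is given as spinal cord and also as intervertebral disc, while the series text speaks of retina from animals 21 days old. No genotype, sex, injury method or time after injury is stated, and the labels name no allele or agent beyond the injury. The labels do not say that each library is a separate animal. The p-values below then measure only how far these libraries spread, and that spread may be technical.

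On this stretch the positions in the files could be matched to a known build. For 133 of the 135 features the first and last base equal those of a gene in GENCODE M21 on build GRCm38. The name is also that of the GRCm38 gene for 70 features, and for Gata6os it is a RefSeq synonym of it. Another 63 carry a different name from the gene at their place, most of them predicted loci that had clone-based names in that release, and Odad2, which stands at the place of Armc4. The feature AC148013.1 matched no gene. Elsewhere names hold far less often: 1755 of all 53546 features have their name hold on at least 90% of their exonic bases.

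Of the 135 features, 44 had at least 60 counts summed over the 6 libraries and are described here, 29 of them protein-coding and 15 not. Another 49 had between 1 count and that minimum, and 42 had 0 counts in all 6 libraries. Nearest to the minimum were Gata6os with 57 counts below it and Gm46633 with 78 above it. The last gene inside the stretch is Gata6, which ends at 11085635. The next features in the files, Gm50067 from 11757972 and Rbbp8 from 11766333, no longer lie on the GRCm38 exons of their names.

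Genes that share a stretch of chromosome need share neither function nor regulation. This one holds the heavy chain of the motor kinesin-1 (Kif5b), transcription factors of mesenchyme, tendon and endoderm (Zeb1, Mkx, Gata6), the kinases Map3k8 and Rock1 and parts of the machinery that handles RNA and worn proteins. The muscle microRNA gene Mir133a-1 lies on the opposite strand within Mib1. Mature spinal cord is made of neurons and glia with long axons, whose cargo is carried by kinesins along microtubules.

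The control libraries were not alike. Of 8 neural genes whose names hold, among them Ptprz1, Gpr37 and Penk, the summed level in controls 1, 2 and 3 was 21.8, 24.2 and 5876 CPM, a count divided by the library's total and multiplied by 1000000. The injury libraries had sums of 6197, 6445 and 6016 CPM. The summed level of 4 kidney tubule genes (Slc13a1, Slc7a13, Aqp3 and Atp6v0d2) reached 2333 CPM in control 1 and 1666 CPM in control 2, while the remaining 4 libraries had sums of 1.68 to 4.97 CPM. Slc7a13 and Aqp3 had 0 counts in those 4. So the libraries labelled control 1 and 2 held these 8 neural genes far below the level of the other 4 libraries. The tissue of origin of the libraries was not tested. Leukocyte genes (Lyn, Cd72, Pax5 and Bach2) summed to 234, 449 and 136 CPM in the controls and to 137 to 207 CPM after injury. Of the disc markers Acan, Col2a1 and T, 0 have a name that holds. Total counts ran from 2385703 to 3921627 per library, and 1 feature alone, named Ltbp3, took 21.8% and 17.2% of the counts in controls 1 and 2. What part these differences have in the results below was not tested. Each library is therefore given singly, and each test is given with and without the controls that stand apart. Positions of a control against the injury range are given on CPM and can change under the scaling of the tests.

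The stretch as a whole took a larger share of the counts in control 3 and after injury than in controls 1 and 2. The 135 features held 0.643% and 0.690% of all counts in controls 1 and 2, 1.28% in control 3, and 1.24%, 1.44% and 1.42% in injury 1, 2 and 3. Kif5b alone made up 11.1% and 7.04% of the members' counts in controls 1 and 2, 29.5% in control 3, and 29.8%, 32.1% and 33.6% after injury. In bulk libraries such as these, fewer cells of a type and less RNA per cell cannot be told apart.

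**Figure D1:**
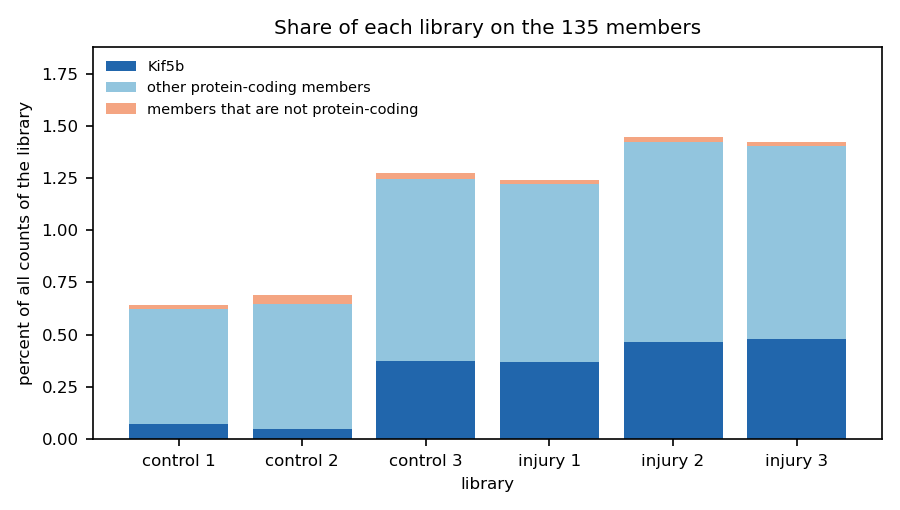
Bars give the percent of each library's counts (y axis) that fell on the 135 features, stacked as Kif5b, the other protein-coding features and the rest, for each of the 6 libraries (x axis, 1 bar per library, no error). The bars of controls 1 and 2 reach 0.643% and 0.690%, those of the other 4 libraries 1.24% to 1.44%.

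Injury was compared with control to find transcripts whose level differs. In the test over all 6 libraries, 0 of the 38 described genes that passed the count filter were higher and 0 lower after injury (edgeR quasi-likelihood test, Benjamini-Hochberg adjustment at 0.05 over 12646 features). The share called over all features was also 0% in each direction. At an unadjusted p under 0.05 there were 6 of the 38 (15.8%), and 25.7% of all features. limma-voom called 0 as well, and DESeq2 called 2 lower, Map3k8 and Gm2531, and 0 higher, where 11.7% of all features were called lower and 0.142% higher. With sample quality weights limma-voom called 18 members higher and 8 lower, against 27.1% and 28.6% of all features. In the edgeR test over all 6 libraries the smallest adjusted p among the members was 0.118.

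Among the genes with the smallest unadjusted p, Jcad, Snrpd1, Cul2, Zfp438 and Bambi had positive log2 fold changes (injury over control), from 0.88 for Snrpd1 to 1.44 for Bambi. Jcad had a log2 fold change of 1.35 (SE 0.63, edgeR adjusted p 0.229). On the negative side stood Map3k8, Gm2531, Gm50023, Gm50055 and Gm26244, from -2.67 for Map3k8 (SE 0.81, edgeR adjusted p 0.123) to -1.50 for Gm50055 and Gm26244. These values mix unlike controls, as the levels by library below show.

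Without control 3, controls 1 and 2 were set against the 3 injury libraries. Of 42 tested members 19 were called higher and 11 lower after injury in the edgeR fit, which is 45.2% and 26.2%. Over all 15320 features 30.2% were called higher and 36.6% lower, and over the 518 features whose names hold 53.5% and 19.1%. The members' shares lie between those of all features and those of features with stable names. The members also had to reach the count minimum, which was not asked of the other features. Gata6 and Gm2531 are among those called lower that reached it through the controls alone. Odad2, called higher, reached it only with its injury counts. The members' shares are thus partly set by that minimum and are not read as a result. The members' median log2 fold change was 0.57, against -0.20 over all features, with the same limit. Scaling by total count in place of TMM shifted the median over all features from -0.20 to -0.75 and gave 17 members higher and 13 lower, with 21.4% of all features higher and 42.8% lower. RLE scaling gave 19 members higher and 10 lower, with 31.2% and 35.3% of all features. Scaling was changed in this way after seeing the data.

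Without controls 1 and 2, control 3 alone stood against the injury libraries and is assumed to vary as they do. Of 40 tested members 0 were called higher and 1 lower, the small nuclear RNA locus Gm26244. The shares called over all 13857 features in this edgeR fit were 1.05% higher and 5.72% lower. At an unadjusted p under 0.05 there were 9 members (22.5%), against 25.5% of all features, and the median log2 fold change of the members was 0.09.

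**Figure D2:**
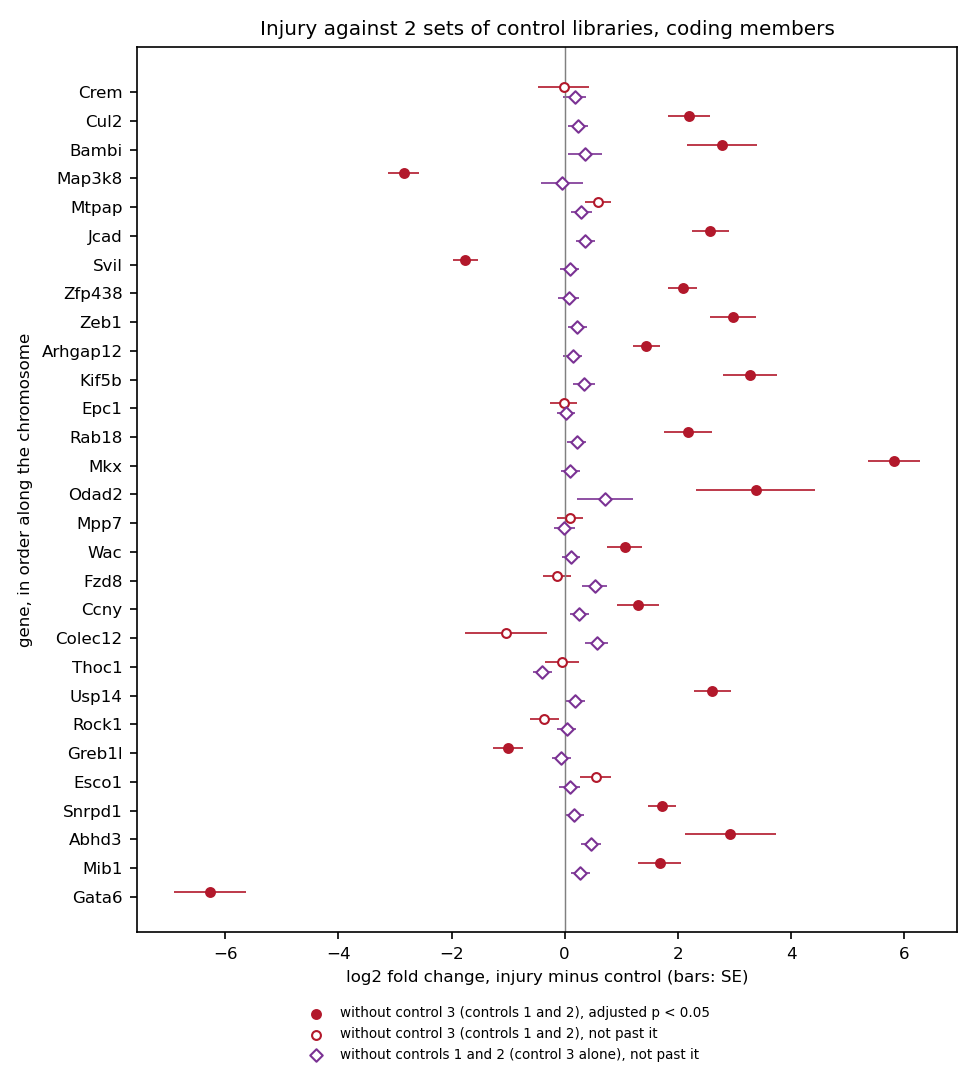
Log2 fold change of injury over control (x axis, bars show SE) for the 29 described protein-coding genes in chromosomal order (y axis), from edgeR fits without control 3 (circles) and without controls 1 and 2 (diamonds), filled where the adjusted p is under 0.05. Circles run from -6.27 for Gata6 to 5.82 for Mkx, while diamonds stay between -0.39 (Thoc1) and 0.71 (Odad2) and none is filled; Gata6 has no diamond because it did not pass the count filter there, and both fits use the same injury libraries.

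Among protein-coding genes tested without control 3, those with the largest fold change in each direction, Mkx and Gata6, are transcription factors. Gata6 reached the minimum of 60 counts only through controls 1 and 2, so its direction is partly set by that minimum. All 8 listed genes of transcription and chromatin were described. Without control 3 the fit called 30.2% of all features higher and 36.6% lower (53.5% and 19.1% where names hold). Of the 8 genes it called 4 higher (Zfp438, Zeb1, Mkx and Wac) and 2 lower (Greb1l and Gata6). Their median log2 fold change there was 0.52, and 0.10 without controls 1 and 2, where 0 of 7 tested were called.

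Mkx, the mohawk homeobox factor of tendon (6934518 to 7004780), had 0.770, 3.57 and 85.3 CPM (controls 1 to 3) against 80.9, 88.1 and 83.0 CPM (injury 1 to 3). Control 3 lay inside the injury range, and controls 1 and 2 lay far below it. Gm46633, an RNA gene that starts next to Mkx on the other strand and is typed as sharing its promoter region, had 0 counts in controls 1 and 2. Its level was 8.41 CPM in control 3, while injury 1, 2 and 3 had 6.19, 8.43 and 5.87 CPM. A count of 0 allows up to 0.770 and 0.765 CPM in controls 1 and 2, for counting error only.

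Zeb1, a zinc finger repressor known for its part in the loss of epithelial character (5591860 to 5775467), stood at 89.6, 283 and 892 CPM in controls 1, 2 and 3. The injury libraries held 932, 973 and 970 CPM, all above the 3 controls, with control 3 at 0.931 times the injury mean of 958 ± 23.0 CPM (SD, n = 3).

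Gata6, a factor of endoderm and heart development (11052064 to 11085635), ran the other way. Controls 1 and 2 held 22.3 and 39.8 CPM, control 3 had 1 count (0.382 CPM), and injury 1, 2 and 3 had 1, 0 and 1 counts. Gata6 thus reached the count minimum only through controls 1 and 2, and the direction of the ratio and call that follow is partly set by it. Over controls 1 and 2 together its level was 126 times that over the injury libraries, with an exact 95% counting interval of 34.6 to 1050.4 that rests on 2 injury counts. Without control 3 it was called lower, with a fitted log2 fold change of -6.27 that depends on the prior count (SE 0.63, edgeR adjusted p 4.78e-04), and with all 6 libraries it did not pass the count filter. Its neighbour Gata6os, which shares 93 exonic bases with it on the opposite strand, was seen in control 1 at 5.90 CPM and control 2 at 8.67 CPM, with 0 counts elsewhere. Counting took no account of strand and left out reads on shared bases, so each value may miss reads or hold some of the other gene's.

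Greb1l, a gene needed for kidney development (10325177 to 10562940), had 297, 274 and 118 CPM (controls 1 to 3) against 107, 105 and 101 CPM (injury 1 to 3). All 3 controls lay above the injury libraries. Zfp438, a zinc finger protein, was low in controls 1 and 2 (18.5 and 35.7 CPM) and stood at 81.4 CPM in control 3, inside the injury range of 75.2 to 84.3 CPM. Wac, an adaptor that links transcription to histone ubiquitination, showed the same order within a narrower span, from 426 CPM in control 2 to 739 CPM in injury 2.

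Crem and Epc1 were called in none of the 3 edgeR fits. Crem, a modulator of transcription downstream of cyclic AMP, had 124, 63.7 and 68.8 CPM in the controls and 58.5, 81.8 and 73.8 CPM after injury, so that the groups overlapped. Epc1, a subunit of a histone acetyltransferase complex, had 262, 282 and 207 CPM in the controls and 199, 189 and 193 CPM after injury. These groups do not overlap, but in the edgeR fit without control 3, on TMM scaling, Epc1 had a log2 fold change of -0.02 (adjusted p 0.945). Under total count scaling that value was -0.51 (edgeR adjusted p 0.05004), just short of the threshold.

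Signalling genes went both ways. Of 8 listed, 7 were described. Without control 3, Bambi, Ccny and Mib1 were called higher and Map3k8 lower. That fit called 30.2% of all features higher and 36.6% lower (53.5% and 19.1% where names hold). The median log2 fold change over the 7 was -0.13. The eighth, the connexin gene Gjd4, had 3 counts in all.

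Map3k8, a kinase that carries inflammatory signals to the ERK pathway (4331327 to 4353015), had a level of 82.9, 119 and 11.1 CPM (controls 1 to 3). Injury 1, 2 and 3 held 11.4, 10.9 and 7.13 CPM, and control 3 lay among them. Without control 3 the log2 fold change was -2.85 (SE 0.27, edgeR adjusted p 3.96e-04), and without controls 1 and 2 it was -0.05 (SE 0.37, edgeR adjusted p 0.946). Of the 4 leukocyte genes above, Lyn and Cd72 were also highest in controls 1 and 2, while Bach2 ran only from 76.2 to 87.5 CPM and Pax5 was lowest there, at 1.28 and 3.31 CPM. Their part in this difference was not tested.

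Mib1, the ubiquitin ligase that activates Notch ligands (10725548 to 10818704), was the second most abundant gene of the stretch per exonic length after injury. Its level was 843, 643 and 1595 CPM (controls 1 to 3) against 1567, 1915 and 1846 CPM (injury 1 to 3). Control 3 lay inside the injury range and controls 1 and 2 below it. Rock1, a kinase that acts on the actin skeleton, had 715, 733 and 436 CPM (controls 1 to 3) against 379 to 444 CPM in the injury libraries. Rock1 was not called without control 3 under TMM (log2 fold change -0.36, edgeR adjusted p 0.262), and was called lower under total count scaling (-0.84, edgeR adjusted p 0.00923).

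Bambi, a decoy receptor of the TGF-beta family, had only 4 counts (1.03 CPM) in control 1, then 7.39 CPM in control 2 and 16.1 CPM in control 3, against 18.6, 20.02 and 18.02 CPM (injury 1 to 3). All 3 controls lay below the injury libraries. Ccny, a membrane-bound cyclin, likewise had 359, 243 and 504 CPM in the controls and 535 to 586 CPM after injury. Fzd8, a Wnt receptor, had 41.1 and 84.7 CPM in controls 1 and 2 and 29.4 CPM in control 3, which lay below the 36.9 to 40.7 CPM of the injury libraries.

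Colec12, a scavenger receptor of the collectin family (9707595 to 9882644), set control 2 apart from every other library. Its level was 402 CPM there, against 33.4 CPM in control 1 and 47.4 CPM in control 3, while injury 1, 2 and 3 had 59.9, 60.4 and 73.4 CPM. Control 2 thus stood at 6.22 times the injury mean and control 1 at 0.517 times. Any mean over the controls, with or without control 3, joins these values, and the gene was called in none of the 3 fits (edgeR adjusted p 0.447 with all 6 libraries, 0.244 without control 3 and 0.0965 without controls 1 and 2).

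Among genes of motors, cytoskeleton and trafficking, controls 1 and 2 lay below the injury range on CPM for 4 of the 6 tested. Over all tested features control 1 lay below it for 49.8% and control 2 for 38.1% (71.1% and 60.3% where names hold). Without control 3, 4 of the 6 tested were called higher after injury (Kif5b, Rab18, Arhgap12 and Odad2) and 1 lower (Svil). Odad2 reached the minimum of 60 counts only with its injury counts. That fit called 30.2% of all features higher and 36.6% lower (53.5% and 19.1% where names hold). The median log2 fold change over the 6 genes was 1.81. Without controls 1 and 2, 0 were called and the median was 0.17.

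Kif5b, the heavy chain of kinesin-1 (6201002 to 6242174), was the most abundant gene of the stretch per exonic length in control 3 and after injury, at 463 to 599 CPM per kb of exon in those 4 libraries. Its level was 715, 486 and 3761 CPM (controls 1 to 3) against 3696, 4633 and 4778 CPM (injury 1 to 3). Control 3 lay inside the injury range, whose own spread was 4369 ± 587 CPM (SD, n = 3). In controls 1 and 2 Kif5b ranked 4th and 7th per length. Its log2 fold change without control 3 was 3.28 (SE 0.47, edgeR adjusted p 0.00154).

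Svil encodes supervillin, which ties actin to membranes (4920540 to 5119299), and had the opposite order, with 440, 630 and 114 CPM (controls 1 to 3) against 104, 112 and 117 CPM (injury 1 to 3). Rab18, a small GTPase of the endoplasmic reticulum and lipid droplets, had 278 and 176 CPM in controls 1 and 2, and the other 4 libraries ran from 691 to 849 CPM. Arhgap12 had 230, 335 and 532 CPM in the controls and 501 to 560 CPM after injury. Mpp7, a scaffold of cell polarity, overlapped between the groups, from 119 CPM in injury 3 to 218 CPM in control 2. Odad2, a docking protein of the dynein arms of cilia, was low in all libraries, with 0 counts in control 2 and at most 10.3 CPM, in injury 1.

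**Figure D3:**
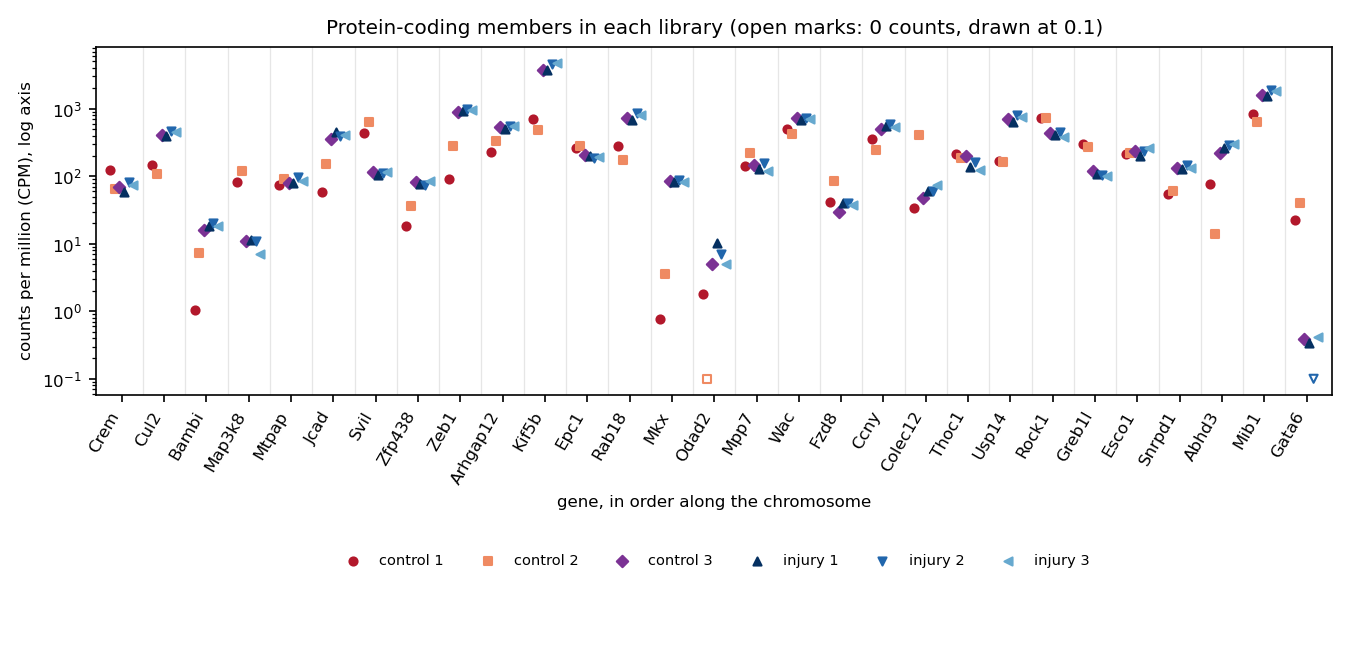
Level of the 29 described protein-coding genes in each of the 6 libraries, in CPM on a log axis (y), in order along the chromosome (x), 1 mark per library and open marks for 0 counts. Control 3 (diamonds) sits with the injury libraries (triangles) for most genes, as for Mkx at 85.3 against 80.9 to 88.1 CPM, while controls 1 and 2 (circles, squares) sit apart, above for Gata6, Map3k8 and Svil and below for Mkx, Kif5b and Zeb1.

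Among 5 listed genes of RNA and protein turnover, all described, 3 were called higher without control 3 (Cul2, Usp14 and Snrpd1) and 0 lower. That fit called 30.2% of all features higher and 36.6% lower (53.5% and 19.1% where names hold). Cul2, the scaffold of the ubiquitin ligase that holds the von Hippel-Lindau protein, had 148, 107 and 406 CPM (controls 1 to 3) against 397, 462 and 455 CPM (injury 1 to 3). Usp14, which removes ubiquitin at the proteasome, had 168, 161 and 704 CPM (controls 1 to 3) against 626, 805 and 762 CPM (injury 1 to 3). Snrpd1, a core protein of spliceosomal particles, had 54.2 and 60.9 CPM in controls 1 and 2 and 127 to 148 CPM in the other 4 libraries. In each of the 3 genes control 3 lay within the injury range on CPM. Such positions depend on the scaling: control 3 lay below that range for 9 tested members on CPM and for 20 on TMM-scaled values.

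Thoc1, part of the complex that exports messenger RNA, had another order on CPM. It held 210, 185 and 201 CPM in the controls and 135, 162 and 124 CPM in injury 1, 2 and 3. On CPM all 3 controls thus lay above all injury libraries, with the controls close together. That order depends on the scaling, since the TMM factors of controls 1, 2 and 3 were 0.908, 1.36 and 1.03. The log2 fold change was -0.37 (SE 0.34, edgeR adjusted p 0.464) with all 6 libraries, -0.05 without control 3 and -0.39 (SE 0.17, edgeR adjusted p 0.152) without controls 1 and 2, and none of these passed. Under total count scaling the value without control 3 was -0.51 (edgeR adjusted p 0.0741). Thoc1 and Usp14 lie end to end on opposite strands and share 2169 exonic bases, on which reads were not counted. The other member of this list, the mitochondrial poly(A) polymerase Mtpap, ran from 74.7 to 98.3 CPM and its groups overlapped.

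The enzymes Abhd3 and Esco1 and the junction protein Jcad complete the coding genes. Abhd3, a hydrolase of phospholipids (10642092 to 10706771), had 76.2, 14.0 and 222 CPM (controls 1 to 3) against 264, 285 and 295 CPM (injury 1 to 3). Jcad, a protein of endothelial cell junctions (4634878 to 4682869), had 59.0, 152 and 353 CPM in the controls and 446, 400 and 412 CPM after injury. In both, all 3 controls lay below all injury libraries, and control 3 stood at 0.789 and 0.843 times the injury mean. Neither passed without controls 1 and 2 (log2 fold change 0.46 and 0.37, edgeR adjusted p 0.0960 and 0.158). Esco1, an acetyltransferase of cohesin, overlapped between the groups, with 215, 223 and 237 CPM in the controls and 202, 234 and 259 CPM after injury.

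Direct neighbours could differ in pattern. Jcad was lowest in controls 1 and 2, and Svil, the next described gene, was highest there. Abhd3 was low in controls 1 and 2 and Esco1, which lies close by with Snrpd1 between them, ran only from 202 to 259 CPM. Over the 29 coding genes, the level relative to the injury mean ran from 0.00917 (Mkx) to 87.8 (Gata6) in control 1, from 0 (Odad2) to 156 (Gata6) in control 2, and from 0.666 (Odad2) to 1.503 (Gata6) in control 3. The medians of these ratios were 0.517, 0.597 and 0.964. The Gata6 ratios rest on 2 counts over the injury libraries. The coefficient of variation over the 3 injury libraries had a median of 8.10%.

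Each control library was then set against the range of the 3 injury libraries, on CPM. Of the 38 tested members, control 1 lay above the range for 14 and below it for 22, where 41.9% of all tested features were above and 49.8% below. Control 2 lay above for 16 and below for 19, against 54.8% and 38.1% of all features. Control 3 lay above for 10 and below for 9, against 43.6% and 22.8%. On TMM-scaled values the count of members for control 3 was 9 above and 20 below, so these counts depend on the scaling. The share over all features was not computed on TMM-scaled values, so the shift is not read as a result about the members.

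All 3 controls lay above all 3 injury libraries for 7 of the 38 tested members (18.4%) and below for 6 (15.8%). Over all tested features 25.4% and 13.7% did so, and over the features whose names hold 8.89% and 24.5%. On CPM the members lie between those shares in both directions. Of the members above, Gm50023, Gm50055 and Gm2531 reached the count minimum through the controls alone. Odad2, among those below, reached it only with its injury counts. The members' shares are thus partly set by that minimum and are not read as a result. The 6 below were Bambi, Jcad, Zeb1, Odad2, Ccny and Abhd3, all protein-coding.

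Of the 15 described members that do not code for protein, 9 reached the minimum of 60 counts through the controls alone, so how many of them are higher in the controls is partly set by that minimum and is not read here. Without control 3, Gm46633, Gm10125 and Gm10557 were called higher, and Gm6225, Gm50023, Gm28529, Gm50055, Gm2531, Mir133a-1hg and Mir133a-1 lower. Under total count scaling Gm10125 and Gm10557 lost the call (log2 fold change 1.37 and 0.30, edgeR adjusted p 0.121 and 0.248), and under RLE scaling Gm6225 did (-0.91, edgeR adjusted p 0.0695). Without controls 1 and 2 only Gm26244 was called among those tested, as lower.

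**Figure D4:**
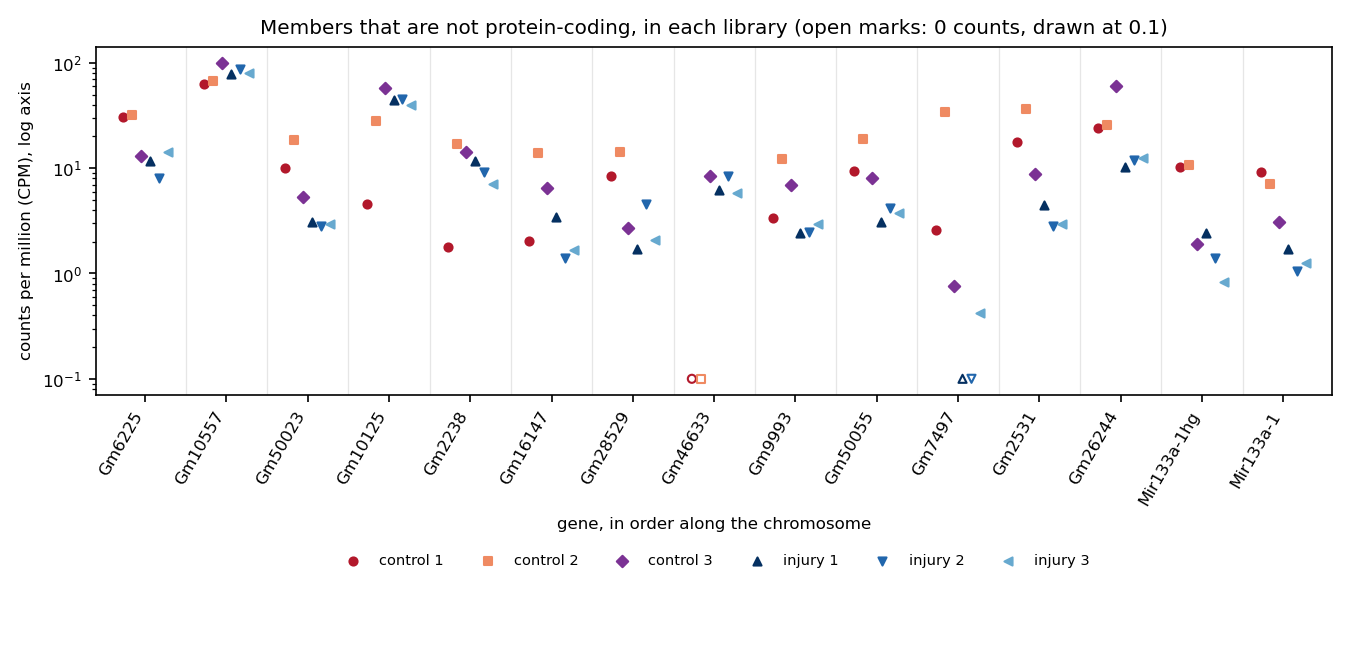
Level of the 15 described members that are not protein-coding in each of the 6 libraries, in CPM on a log axis (y), in order along the chromosome (x), with open marks for 0 counts. For Gm50023, Gm9993, Gm50055, Gm7497, Gm2531, Gm26244 and Mir133a-1 the marks of all 3 controls lie above those of all 3 injury libraries. All of these but Gm26244 reached the minimum of 60 counts through the controls alone, so this order is partly set by that minimum. Over all tested features 25.4% had all 3 controls above all 3 injury libraries.

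Gm26244, a small nuclear RNA locus of 164 bases inside Rock1 (10150977 to 10151140), was the only member called without controls 1 and 2. Controls 1, 2 and 3 held 24.1, 25.8 and 60.03 CPM and injury 1, 2 and 3 held 10.3, 11.9 and 12.6 CPM. Every control lay above every injury library, and control 3 lay highest. The log2 fold change was -1.50 (SE 0.49, edgeR adjusted p 0.133) with all 6 libraries, and -2.25 (SE 0.25, edgeR adjusted p 2.01e-05) against control 3 alone. Without control 3 it was -0.63 (SE 0.32, edgeR adjusted p 0.125), and under total count scaling it was called lower there too (-1.12, edgeR adjusted p 0.0270). Small nuclear RNAs have many near-identical copies, and the counting program by default leaves out reads that map to several places, so this level is uncertain.

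Of the 15, 8 lie within the span of a protein-coding member, Gm26244 among them. Strand was not used in counting, so reads of the locus and of the host's unspliced transcript cannot be told apart. Taken with their hosts, the nested loci other than Gm26244 held counts equal to 2.60% and 5.28% of the hosts' counts in controls 1 and 2, 0.862% in control 3, and 0.455%, 0.371% and 0.325% in injury 1, 2 and 3. These loci are among the 9 that reached the minimum of 60 counts through the controls alone. Their order between the groups is thus partly set by that minimum and is not read. Control 3 was nearer to the injury libraries than to controls 1 and 2.

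Gm2531 is a pseudogene within Rock1. Its own level was 17.7, 36.7 and 8.79 CPM in the controls and 4.47, 2.81 and 2.93 CPM after injury, with a log2 fold change of -2.40 (SE 0.57, edgeR adjusted p 0.118) over all 6 libraries. Relative to Rock1 its counts were 2.48%, 5.01% and 2.02% in the controls and 1.10%, 0.633% and 0.773% after injury, and control 3 lay nearer to control 1 than to the injury libraries. Gm50055 within Ccny stood at 2.65%, 7.87% and 1.59% of its host in the controls and at 0.569% to 0.719% after injury. Gm16147 within Zeb1 followed the same order, from 4.95% in control 2 to 0.144% in injury 2. Gm28529, on the strand opposite to Epc1 and sharing 405 exonic bases with other features, was high in controls 1 and 2 alone (3.24% and 5.06%), with control 3 at 1.29% inside the injury range of 0.865% to 2.42%.

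Mir133a-1 and its host transcript Mir133a-1hg, which give rise to a microRNA of heart and skeletal muscle, lie against Mib1 (10781723 to 10785883). Mir133a-1hg had 10.3, 10.7 and 1.91 CPM (controls 1 to 3) against 2.41, 1.40 and 0.838 CPM (injury 1 to 3). Mir133a-1 had 9.24, 7.14 and 3.06 CPM in the controls and 1.72, 1.05 and 1.26 CPM after injury. Relative to Mib1 these counts were 1.22% and 1.67% for Mir133a-1hg in controls 1 and 2 and at most 0.154% in the other 4 libraries. The counts are of RNA fragments over the locus and not of mature microRNA.

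Within Colec12 the described pseudogene Gm7497 was highest in control 2, like its host, with 34.4 CPM in control 2, 2.57 CPM in control 1, 0.765 CPM in control 3, and 0, 0 and 1 counts after injury. As a share of Colec12 it was 7.69% and 8.57% in controls 1 and 2, where the host's own level was 33.4 and 402 CPM. It was 1.61% in control 3 and 0%, 0% and 0.571% in injury 1, 2 and 3.

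**Figure D5:**
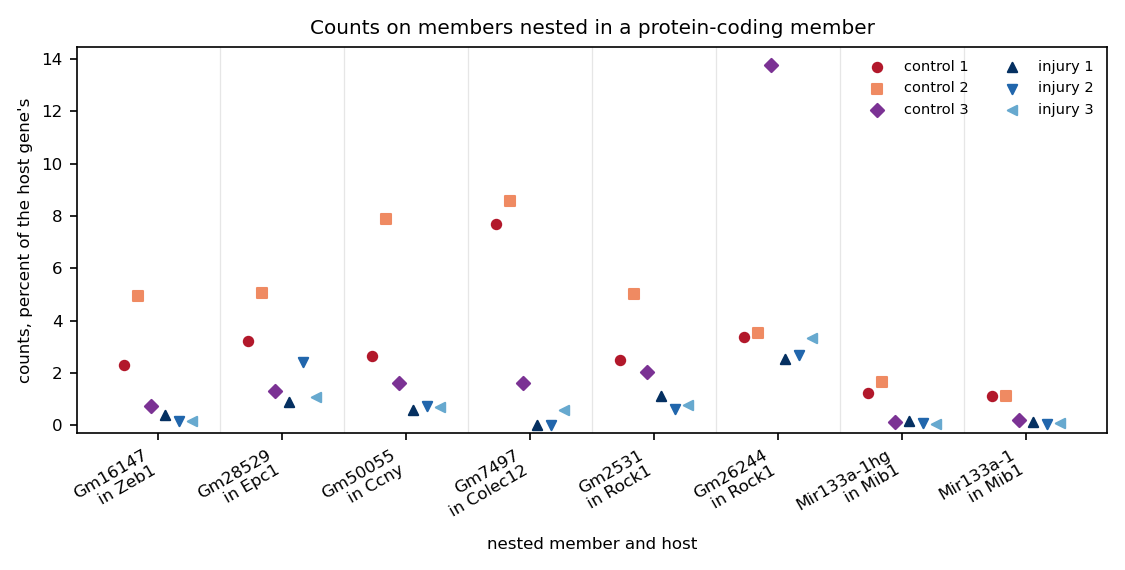
Counts on the 8 described members nested in a protein-coding member, as percent of the host gene's counts in the same library (y axis), 1 mark per library and 1 column per member (x axis). Controls 1 and 2 are highest for every locus except Gm26244, where control 3 reaches 13.8% and the other libraries lie between 2.53% and 3.52%. Every locus but Gm26244 reached the minimum of 60 counts through the controls alone, so the order of the groups is partly set by that minimum.

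Outside any host, Gm50023, an intergenic RNA gene next to Mtpap, had 10.01, 18.4 and 5.35 CPM in the controls and 3.10, 2.81 and 2.93 CPM after injury. Gm10125 and Gm2238, which lie on the other strand at the start of Zeb1, stood at 4.62 and 1.80 CPM in control 1, against 57.4 and 14.1 CPM in control 3. Gm10125 followed Zeb1 in being low in control 1, and stood at 39.8 to 45.3 CPM after injury. The processed pseudogene Gm10557 was almost level, from 63.4 CPM in control 1 to 100.2 CPM in control 3. Gm6225, which overlaps the start of Crem by 472 bases, held 30.5 CPM in control 1 and 31.9 CPM in control 2, while the remaining libraries ran from 8.08 to 14.3 CPM. Gm9993, which overlaps the start of Wac by 260 bases, ran from 2.41 CPM in injury 1 to 12.2 CPM in control 2.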

How the data were processed

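RNA was extracted with Trizol and libraries were made with an Illumina TruSeq kit, per the labels' protocols. Per the file headers, the authors counted read pairs with featureCounts 2.0.1, both ends mapped and on 1 chromosome, over exons by gene name. No strand or multi-mapping option is set there, so strand was not used and multi-mapping and overlapping reads were left out, as is that program's default. The aligner, genome build and annotation release behind the deposited counts are not given in the sources used here. The submitters' processing notes name Bowtie 0.12.2, mm8 and mm9. Positions are those of the files, set against GENCODE M21 on GRCm38 with no conversion.

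CPM values use each library's total count. The test was edgeR 4.0.16 (R 4.3.3) with TMM scaling, filterByExpr and the quasi-likelihood F test across all features, with Benjamini-Hochberg adjustment at 0.05. The pipeline was tested on simulated counts in which the control libraries were alike by design. The real controls were not alike, so that test does not cover the gap between them. Other scalings were tried (RLE, total count, upper quartile, and features whose names hold), as were other filters, DESeq2 1.42.0, limma-voom (limma 3.58.1), a replicate block and leaving out libraries; control 3 left out under RLE or total count scaling was added after seeing the data. The members, role lists, markers and the removal of controls 1 and 2 were chosen with earlier results of these data known. Under the naming rule, fold changes are given for up to 5 members a direction, taken by smallest unadjusted p over all 6 libraries. The other genes given a fold change were chosen after their values were seen. No sequence is printed. Counting intervals and floors (3 counts) cover counting error only, and every pair of libraries differed by more than sampling noise, with a chi-square of at least 3.55 per feature.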

Additional observations from a re-analysis of the deposited data

How the results depend on the processing

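With all 6 libraries, the count of 0 members higher and 0 lower held under RLE, upper quartile and total count scaling, under scaling from features whose names hold, under both other filters and under limma-voom. With the replicate block it was 0 and 0. The deviations of same-numbered libraries from their group means correlated across features at 0.06, -0.14 and 0.05. Those of libraries with unlike numbers correlated at -0.18 to 0.23. Controls 1 and 2 stand so far from control 3 that these values cannot settle whether the numbers mark pairs. DESeq2 called 0 higher and 2 lower, against 0.142% and 11.7% of all features. Sample quality weights in limma-voom gave 18 higher and 8 lower, against 27.1% and 28.6% of all features. Leaving out 1 library gave 0 to 19 members higher and 0 to 11 lower. Each count above 0 came without control 3, where 30.2% and 36.6% of all features were called. Without controls 1 and 2 it was 0 higher and 1 lower. With control 3 left out, total count scaling gave 17 higher and 13 lower, against 21.4% and 42.8% of all features. RLE gave 19 higher and 10 lower, against 31.2% and 35.3%. The cause of these differences was not tested. The 10 genes chosen by smallest p kept their sign, but without controls 1 and 2 Map3k8 went from -2.67 to -0.05 (log2) and Zfp438 from 0.98 to 0.07. Fewer than 60 counts over 6 libraries left 91 members without a described level.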

Other observations

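The 91 members below the count minimum include 5 protein-coding genes: the vomeronasal receptor Vmn1r238, the centrin Cetn1 and 4921524L21Rik with 0 counts in all 6 libraries, the lysozyme-like gene Lyzl1 with 1 count and Gjd4 with 3. The other microRNA loci at Mib1 were Mir1b, with 27 counts, and Mir1a-2, with 0. Mir1a-2 lies within Mir1b on the other strand, and all of its 72 bases are shared with Mir1b. Reads on shared bases were left out, so the 0 of Mir1a-2 does not give its level.

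All 6 members inside Colec12, 5 of them under the minimum, together held counts equal to 13.8% and 19.5% of the host's in controls 1 and 2, 6.45% in control 3, and 2.30%, 0.581% and 2.29% in injury 1, 2 and 3. One of them, the small nuclear RNA locus Gm23350, had 20 counts in control 2, 1 in injury 3 and 0 in the other 4 libraries.

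Ranked by CPM per kb of exon among the 44 described members, Gm26244 was first in controls 1 and 2 at 147 and 157 CPM per kb, second in control 3 at 366, and eleventh in each injury library at 63.0 to 76.7. Such short loci carry few counts, 94 and 101 in controls 1 and 2.

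Leaving out the loci Gm26244 and Gm7497 and the host Colec12, the nested loci held 2.52% and 4.67% of their hosts' counts in controls 1 and 2. They held 0.852% in control 3 and 0.320% to 0.462% after injury. These loci too reached the count minimum through the controls alone, so the order of the groups is partly set by it.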
